A study of Mus musculus with 32 samples.

Results

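The genotype-by-stage interaction asks whether losing LAG-3 changed a microglial transcript differently late in disease than early in disease. It was estimated for every gene from the 12 libraries of sorted SOD1G93A microglia among the 32 libraries of the series, as the LAG-3-/- minus LAG-3+/+ difference at P140 less the same difference at P120, on a log2 scale. Of the 74016 genes deposited for these libraries, 18669 had enough counts to be tested. A positive coefficient means that the LAG-3-/- level, relative to LAG-3+/+, was higher at P140 than at P120, and a negative coefficient means that it was lower.

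The study followed LAG-3 in the spinal cord of mice carrying a mutant human SOD1 transgene, a model of amyotrophic lateral sclerosis, and also sequenced P140 SOD1G93A microglia separated by surface LAG-3 (5 libraries of the low and 5 of the high fraction) beside unseparated WT microglia (4 libraries), and whole lumbar spinal cord (6 libraries). For the stage experiment, lumbar cord microglia were taken as CD11b+/CD45int cells by sorting from B6.Cg-Tg(SOD1*G93A)1Gur/J mice crossed to B6.129S6(Cg)-Lag3tm1Doi/J mice. The 4 groups were SOD1G93A/LAG-3+/+ at P120, SOD1G93A/LAG-3-/- at P120, SOD1G93A/LAG-3+/+ at P140 and SOD1G93A/LAG-3-/- at P140, where P is the postnatal day, P120 the early and P140 the late symptomatic stage. Each group had 3 libraries, listed by the study as 2 males and 1 female. Every animal carried the SOD1G93A transgene, so these 12 libraries hold no healthy control, and the Lag3 deletion was present in all cells from conception, so that a coefficient cannot be assigned to microglia alone. The labels do not state that each library is a separate animal, and the p-values measure the spread between these libraries.

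Microglia are the resident macrophages of the central nervous system. In neurodegeneration many of them lower homeostatic genes such as Tmem119, P2ry12 and Cx3cr1 and raise a set known as disease-associated microglia (DAM) genes, among them Trem2, Tyrobp, Apoe, Cst7, Clec7a and Axl, several of which serve the sensing and engulfing of dying cells and debris. LAG-3 is an inhibitory receptor best known from T cells, and its classical ligand is MHC class II, the complex that displays peptides to CD4+ T cells.

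At the threshold used (edgeR's quasi-likelihood test, Benjamini-Hochberg adjusted p under 0.1), 30 genes had a higher coefficient (0.161% of genes tested) and 2 had a lower one (0.0107%). The 2 lower genes were H2-Aa, which encodes the alpha chain of the MHC class II molecule I-A, and Sec61a2, which encodes a subunit of the channel that takes new proteins into the endoplasmic reticulum. The 30 higher genes shared a simple profile: 27 of them had all P140 LAG-3+/+ libraries below all 9 other libraries, an arrangement found in 8.15% of all genes tested. In 29 of the 30 the P140 LAG-3+/+ libraries lay below all P140 LAG-3-/- libraries, against 12.2% of all genes. Since the coefficient uses the same libraries, these counts describe the calls and are not separate evidence for them.

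**Figure D1:**
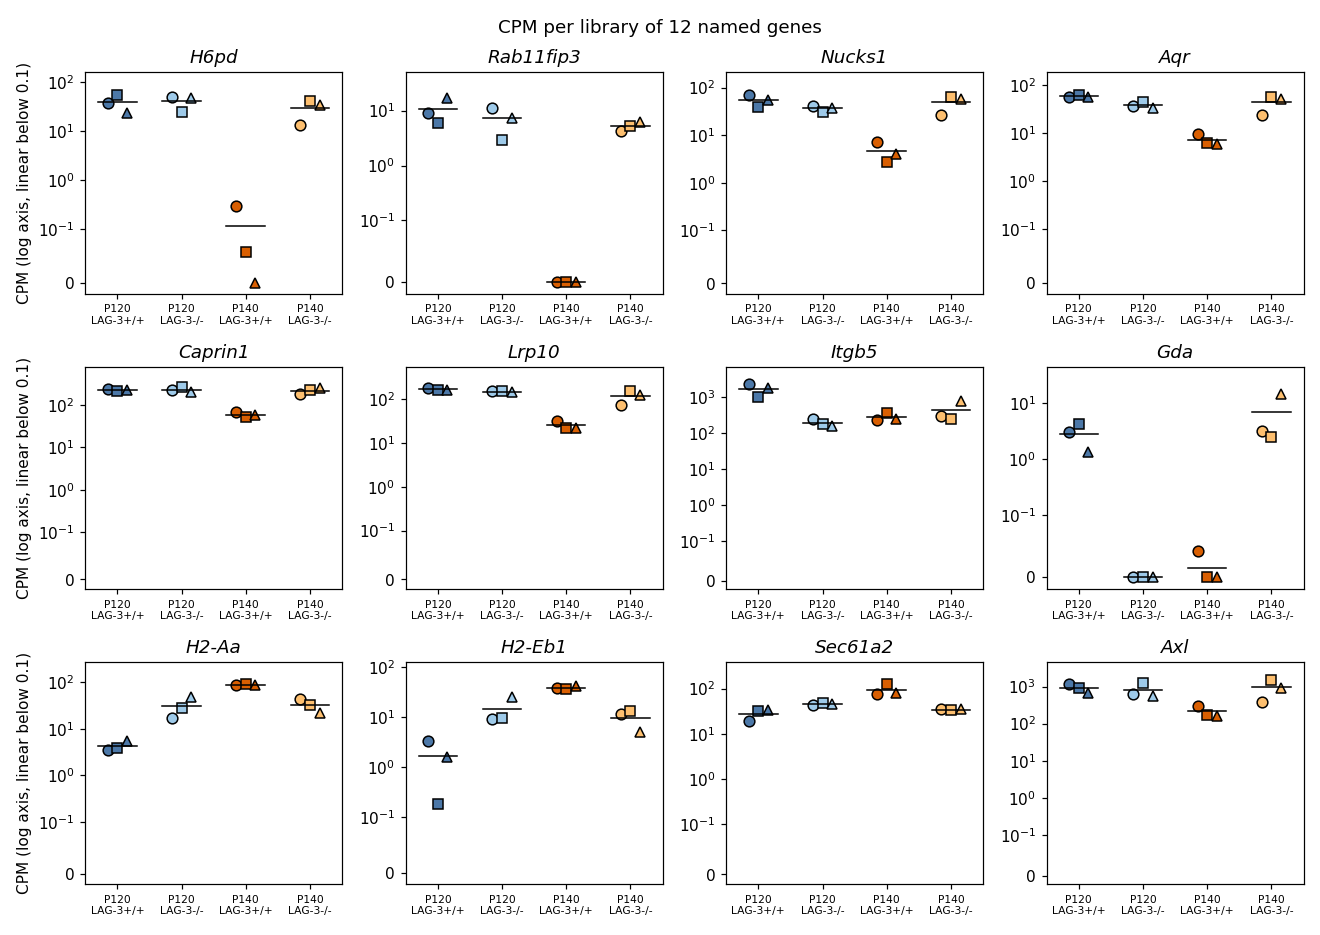
Level in CPM (log axis, linear near 0) of 12 named genes in each of the 12 libraries, by group, with a horizontal bar at the group mean; circles, squares and triangles are replicates 1, 2 and 3. H6pd, Rab11fip3, Nucks1, Aqr, Caprin1 and Lrp10 are lowest in the 3 P140 LAG-3+/+ libraries, H2-Aa, H2-Eb1 and Sec61a2 are highest there, Itgb5 is highest in P120 LAG-3+/+ libraries, Gda is near 0 in P120 LAG-3-/- and P140 LAG-3+/+ libraries, and H2-Eb1 and Axl were not called.

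Levels are given as CPM, the counts scaled to the library's TMM-adjusted total, in the order of replicates 1, 2 and 3. The coefficient of H2-Aa (ENSMUSG00000036594, chromosome 17, 34493404 to 34506798, minus strand, GRCm39) was -4.30 ± 0.56 (log2, SE), with an adjusted p of 0.0374. Its level was 3.56, 3.83 and 5.38 CPM in P120 LAG-3+/+ microglia and 16.7, 27.9 and 49.5 CPM in P120 LAG-3-/- microglia. It was 86.2, 89.9 and 87.3 CPM in P140 LAG-3+/+ microglia and 44.2, 32.4 and 22 CPM in P140 LAG-3-/- microglia. The genotypes therefore did not overlap at either stage, and they stood in opposite order: the LAG-3-/- mean was 7.37 times the LAG-3+/+ mean at P120 and 0.374 times at P140. Taken by itself, the genotype difference passed the threshold at P140 (adjusted p = 0.0656) and not at P120 (adjusted p = 0.107). In such bulk libraries, fewer cells of a type and less RNA per cell cannot be told apart.

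The other chains of classical MHC class II gave values of the same sign without passing the threshold. H2-Eb1, the beta chain of I-E, had a coefficient of -5.07 ± 1.13 with an adjusted p of 0.176, from 3.33, 0.185 and 1.56 CPM (P120 LAG-3+/+), 9.26, 9.53 and 24.4 CPM (P120 LAG-3-/-), 38.2, 36.3 and 41.1 CPM (P140 LAG-3+/+) and 11.4, 12.9 and 4.94 CPM (P140 LAG-3-/-). H2-Ab1, the beta chain of I-A, had a coefficient of -2.0 ± 0.56 with an adjusted p of 0.205 and group means of 43.3, 86.8, 226 and 114 CPM in the same order. For H2-Eb1 the genotypes again did not overlap at either stage and again stood in opposite order, whereas for H2-Ab1 they overlapped at P120. The annotated spans of H2-Aa and H2-Eb1 (34504236 to 34535648, plus strand) overlap on opposite strands. Counts were made on transcripts, and whether transcripts of the 2 genes share sequence was not checked. No source states that the counting used strand, so reads from any shared sequence could not be told apart.

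The promoters of H2-Aa and H2-Eb1 are shown because these 2 genes had the most negative coefficients of the MHC class II list that rested on levels above 10 CPM in some group. Class II promoters are known for an upstream set of conserved elements that ends in a Y box, an inverted CCAAT sequence. The 250 bases before each start site, 5′ to 3′ on the gene's own strand, were read from RefSeq for the older build GRCm38.p6, with CCAAT or its reverse complement ATTGG in capitals. H2-Aa lies at chr17:34287824-34288073 (minus strand) and H2-Eb1 at chr17:34305617-34305866 (plus strand).
H2-Aa: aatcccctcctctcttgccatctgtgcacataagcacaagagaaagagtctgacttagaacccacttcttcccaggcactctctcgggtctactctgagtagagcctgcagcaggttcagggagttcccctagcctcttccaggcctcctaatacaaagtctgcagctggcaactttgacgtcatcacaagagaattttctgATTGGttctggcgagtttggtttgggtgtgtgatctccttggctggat
H2-Eb1: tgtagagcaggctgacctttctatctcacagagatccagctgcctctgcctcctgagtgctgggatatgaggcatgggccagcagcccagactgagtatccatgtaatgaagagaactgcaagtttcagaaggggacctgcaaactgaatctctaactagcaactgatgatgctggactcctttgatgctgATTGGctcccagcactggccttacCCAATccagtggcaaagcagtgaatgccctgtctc
The H2-Aa window held ATTGG from 48 bases before the start, and the H2-Eb1 window held ATTGG from 59 bases and CCAAT from 35 bases before the start. At least 1 of these motifs occurred in 33.8% of the 32851 promoter windows of this length, and a match is a description of the letters only.

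Across the MHC class II list all 10 measured members had negative coefficients. H2-Aa was called, and 6 members had an unadjusted p under 0.05, a level reached with a negative coefficient by 3.67% of all genes tested. The median coefficient of the list was -1.15, against 0.18 for all genes. The invariant chain Cd74, a chaperone of class II and no named gene under the rule used, had a coefficient of -1.49 with an adjusted p of 0.211. Ciita, the master activator of class II transcription and likewise chosen here after its values were seen, was at or below 3.11 CPM in all 12 libraries. By DESeq2, 5 of the 10 members were called lower, where 384 of all genes were (2.06%).

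Monocytes and border macrophages also carry class II. Of 15 listed markers of monocytes and border macrophages, 11 passed the filter on low counts, 7 had positive coefficients, 5 of them at an unadjusted p under 0.05, and none was called. The median coefficient of the 11 was 4.16, of the opposite sign to class II, and 6 of the 11 had a group with all libraries at 0. Their summed level ranged from 93.6 to 320 CPM in P120 LAG-3+/+, from 2.30 to 66.7 CPM in P120 LAG-3-/-, from 116 to 362 CPM in P140 LAG-3+/+ and from 60.7 to 545 CPM in P140 LAG-3-/- libraries. Of the defining markers, Mrc1 was at 0 in all P120 LAG-3+/+ libraries and was detected in 1 library of each of the other groups. Only 4 of the 11 had negative coefficients, among them Ms4a7, which was chosen after its values were seen. Ms4a7 was at 14.3, 3.59 and 1.92 CPM in P120 LAG-3+/+, 0.0233, 56.9 and 1.83 CPM in P120 LAG-3-/-, 133, 120 and 97.0 CPM in P140 LAG-3+/+ and 43.9, 45.2 and 31.3 CPM in P140 LAG-3-/- libraries. The part of monocytes and border macrophages in the class II values was not tested.

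Sec61a2 (ENSMUSG00000025816, chromosome 2, 5874426 to 5900243) had a coefficient of -2.19 ± 0.38 with an adjusted p of 0.0908. It was at 18.6, 31.1 and 33.3 CPM in P120 LAG-3+/+, 43.6, 48.3 and 44.4 CPM in P120 LAG-3-/-, 75.7, 128 and 80.4 CPM in P140 LAG-3+/+ and 34.3, 33.1 and 34.6 CPM in P140 LAG-3-/- microglia. The LAG-3-/- libraries were above the LAG-3+/+ libraries at P120 and below them at P140, without overlap at either stage. Both lower calls had all P140 LAG-3+/+ libraries above all 9 others (6.49% of genes tested) and hence above all P140 LAG-3-/- libraries (8.92%).

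Besides H2-Eb1, 5 genes were named for the smallest p among negative coefficients without passing the threshold. Sec62, another part of the protein translocation machinery, had a coefficient of -1.24 (adjusted p = 0.185). It was at 123 to 150 CPM in P120 LAG-3+/+, 179 to 185 CPM in P120 LAG-3-/-, 344 to 362 CPM in P140 LAG-3+/+ and 147 to 275 CPM in P140 LAG-3-/- microglia. The coefficients of Araf, a RAF-family kinase, Rbm7, an RNA-binding adaptor of nuclear RNA decay, and Hmces, which protects abasic sites in DNA, were -1.18, -1.0 and -1.88, each with the P140 LAG-3+/+ libraries above all others. Ifi205, an interferon-inducible gene, had a coefficient of -7.75 but spread from 1.48 to 37.5 CPM within P140 LAG-3+/+ microglia. At an unadjusted p under 0.05, 1855 genes had a positive coefficient (9.94%) and 686 a negative one.

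**Figure D2:**
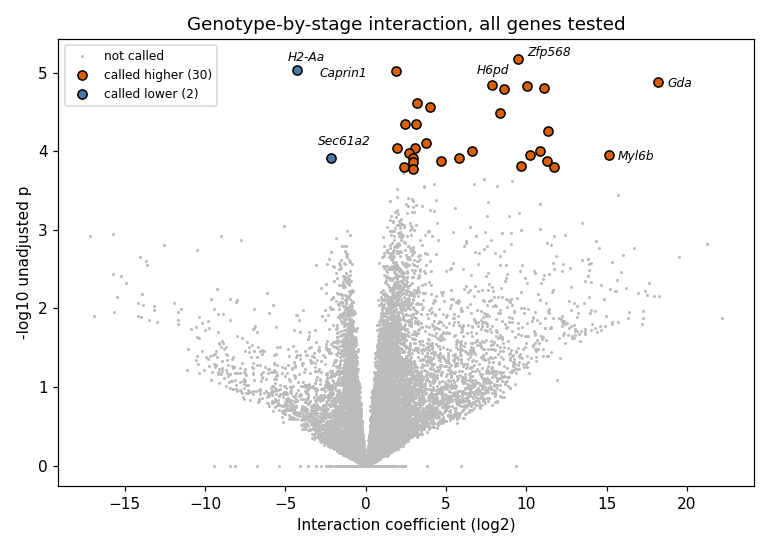
Interaction coefficient (log2, x axis) against -log10 of the unadjusted p (y axis) for the 18669 genes tested. Orange points are the 30 genes called higher and blue points the 2 called lower. The 30 lie on the right at coefficients of 1.86 and above, and coefficients beyond about 8 belong to genes with a group at or near 0 counts.

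Genes nearly absent from the P140 LAG-3+/+ libraries of this experiment made up much of the higher calls. In 13 of the 30 no P140 LAG-3+/+ library had more than 3 counts, a state shared by 6.59% of all genes with P140 LAG-3-/- libraries above it. In 10 of the 13 all P140 LAG-3+/+ libraries were at 0. For these the fitted coefficient depends on the prior count, and a bound was taken instead by setting each P140 LAG-3+/+ library to 3 counts.

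Rab11fip3 (chromosome 17, 26206406 to 26288534), an effector of the recycling endosome GTPase Rab11, was at 9.19, 5.89 and 16.9 CPM in P120 LAG-3+/+, 11.3, 2.93 and 7.42 CPM in P120 LAG-3-/-, 0 in each P140 LAG-3+/+ and 4.22, 5.20 and 6.15 CPM in P140 LAG-3-/- microglia. The LAG-3-/- to LAG-3+/+ ratio was at least 56.1-fold higher at P140 than at P120 (adjusted p = 0.0374). Zfp568, a zinc finger repressor and the gene with the smallest p of all, was at 6.75, 4.76 and 5.53 CPM, 11.9, 7.52 and 8.72 CPM, 0 in each library and 4.54, 4.46 and 3.46 CPM in the same order of groups, which gave a ratio at least 18.4-fold higher. Zfp407, another zinc finger gene, was at 0 in P140 LAG-3+/+ microglia and at 0.750, 8.52 and 7.52 CPM in P140 LAG-3-/- microglia, where replicate 1 stood well below the other two. Apart from Zfp407, which reached 27.8 CPM in a P120 LAG-3+/+ library, none of the 10 genes was above 16.9 CPM in any library.

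H6pd (chromosome 4, 150055676 to 150093559), which makes NADPH inside the endoplasmic reticulum, had at most 7 counts in a P140 LAG-3+/+ library. It was at 37.6, 54.5 and 23.5 CPM in P120 LAG-3+/+ and 50.3, 24.6 and 47.9 CPM in P120 LAG-3-/- microglia, where the genotypes overlapped. At P140 it was at 0.291, 0.0569 and 0 CPM in LAG-3+/+ and 13.2, 42.0 and 35 CPM in LAG-3-/- microglia, with a coefficient of 7.86 ± 1.08 (adjusted p = 0.0374). Ajm1, an apical junction component, and C2cd2l, which moves phosphatidylinositol between membranes at sites where the endoplasmic reticulum meets the plasma membrane, followed the same order. Ajm1 had at most 1 count in a P140 LAG-3+/+ library and 4.14, 16.2 and 9.24 CPM in P140 LAG-3-/- libraries. C2cd2l had a coefficient of 5.78 ± 1.01 and Zfp280b one of 4.67 ± 0.82, each with an adjusted p of 0.0908.

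A second group of higher calls stayed readily detected in all libraries. Caprin1 (chromosome 2, 103592979 to 103628010), an RNA-binding protein of stress granules, had the smallest spread: 237, 213 and 230 CPM in P120 LAG-3+/+, 228, 260 and 197 CPM in P120 LAG-3-/-, 66.3, 52.9 and 57.8 CPM in P140 LAG-3+/+ and 183, 219 and 244 CPM in P140 LAG-3-/- microglia. Its coefficient was 1.86 ± 0.25 (adjusted p = 0.0374), and the LAG-3-/- mean was 1.01 times the LAG-3+/+ mean at P120 and 3.65 times at P140. Nucks1, a DNA-binding nuclear protein, was at 7.02, 2.73 and 4.07 CPM in P140 LAG-3+/+ and at 27.0, 64.2 and 58.1 CPM in P140 LAG-3-/- microglia, with a coefficient of 4.03 ± 0.59 (adjusted p = 0.0511). Aqr, a helicase of the spliceosome, Lrp10, an endocytic receptor of the LDL receptor family, and Kdm4b, a histone demethylase, had coefficients of 3.21, 2.42 and 2.69. In each of these the P140 LAG-3-/- replicate 1 was the nearest of that group to the LAG-3+/+ libraries, at 23.7, 73.0 and 12.2 CPM.

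The rest of the 30 covered varied functions. Ube2o and Hectd3 belong to ubiquitin transfer, Ipo13 to nuclear import, Ska3 to the attachment of chromosomes to the spindle, Washc5 to the WASH complex on endosomes and Jmy to actin nucleation. Slc44a1 transports choline, Man1c1 trims mannose in the Golgi, Phka2 is a subunit of phosphorylase kinase, and Unc119b carries lipid-modified proteins. Zfp109 encodes a zinc finger protein. Plekhn1, Gm49015, Gm60084 and Gm4668 complete the set, and 27 of the 30 are annotated as protein coding.

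Itgb5, Gda and Myl6b were the 3 higher calls whose P140 LAG-3+/+ libraries did not lie below all others. Itgb5 (chromosome 16, 33649988 to 33771137), the beta 5 integrin that with alpha v binds bridging molecules on dying cells, was at 2336, 1002 and 1818 CPM in P120 LAG-3+/+ and at 245, 177 and 162 CPM in P120 LAG-3-/- microglia. At P140 it was at 235, 359 and 250 CPM in LAG-3+/+ and at 294, 243 and 772 CPM in LAG-3-/- microglia, so the genotypes were apart only at P120 and overlapped at P140. The coefficient was 3.78 ± 0.63 (adjusted p = 0.0908), made of genotype differences of -3.14 at P120 (adjusted p = 0.107) and 0.63 at P140 (adjusted p = 0.400). Gda, guanine deaminase, was at 3.02, 4.2 and 1.33 CPM in P120 LAG-3+/+, at 0 in each P120 LAG-3-/-, at 0 or 1 count in P140 LAG-3+/+ and at 3.16, 2.53 and 15 CPM in P140 LAG-3-/- microglia. Myl6b, a myosin light chain, showed the same crossing at levels under 2.3 CPM.

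Lag3 itself (ENSMUSG00000030124) is the check of the genotype. It averaged 59.3 ± 5.22 CPM (SD, n = 3) in P120 LAG-3+/+ and 26.1 ± 1.84 CPM in P140 LAG-3+/+ microglia, and at most 0.462 CPM in any LAG-3-/- library. Its interaction coefficient was 0.41 ± 0.87 with an adjusted p of 0.895. The 12 libraries therefore matched their labelled genotype. In LAG-3+/+ microglia Lag3 was thus lower at P140 than at P120, whereas the study reported by quantitative PCR that it rose to P140 in lumbar cord tissue. In the separately sorted P140 SOD1G93A microglia Lag3 was at 34.8 to 57.8 CPM in the LAG-3-low and 146 to 195 CPM in the LAG-3-high fraction. The cause of these differences was not tested.

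The libraries differed in ways that ran alongside the interaction. Genes with at least 1 count numbered 18896 to 20489 in P140 LAG-3+/+ libraries and 20260 in P140 LAG-3-/- replicate 1, against 23459 to 24942 in the other 8, and the order held when all libraries were thinned to 23981240 counts (18896 to 19942 and 19859, against 22606 to 23447). The 4664 genes with the longest transcripts (3306 bases or more) took 10.2% to 14% of the counts in P140 LAG-3+/+ libraries and 15.2% in P140 LAG-3-/- replicate 1, against 23.8% to 30.9% in the others. The first principal component of log2 CPM (29.4% of the variance) placed the same 4 libraries apart, at 84.7 to 199 against -77.6 to -43.7. Library totals ran from 23981406 to 49512632 counts. At P140 these differences and the genotype cannot be fully told apart, and their part in the interaction was not tested beyond the alternatives given.

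**Figure D3:**
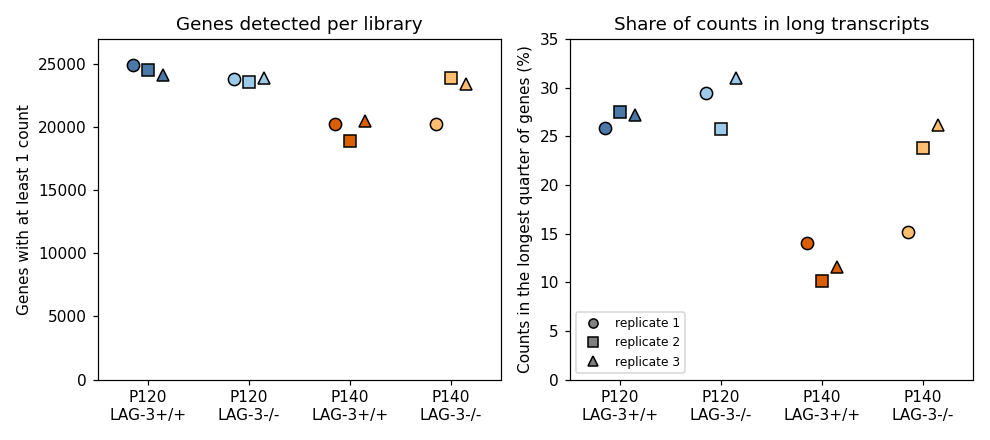
Genes with at least 1 count (left) and the share of counts, in percent, that fell in the 4664 genes with the longest transcripts (right), 1 point per library by group, with both axes starting at 0. The 3 P140 LAG-3+/+ libraries and P140 LAG-3-/- replicate 1 lie below the other 8 in both.

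Transcript length moved with the coefficient. With the genes in 4 equal bins from the shortest to the longest transcripts, its median was -0.07, -0.18, 0.11 and 0.90, and 0, 3, 7 and 20 of the 30 higher calls fell in these bins. The median transcript of the higher calls was 3966 bases long against 1932 bases over all genes tested. When length and GC trends were removed from each library, 4 calls were left, 3 higher (Zfp568, H6pd and Gda) and 1 lower (H2-Aa), and the coefficients of Caprin1 and Axl went from 1.86 to 0.53 and from 2.31 to 0.90. Other genes that lost their call kept coefficients of similar size, such as Sec61a2, from -2.19 to -2.82, and Ska3, from 6.62 to 6.22. The median over all genes went from 0.18 to -0.46 with the same correction, and the coefficients given here include that shift.

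The number of calls depended on single libraries. Without P140 LAG-3-/- replicate 1, 1187 genes were called higher (5.79%) and 526 lower (2.56%), with all 32 among them. Without P140 LAG-3+/+ replicate 1, 375 were called higher and 22 lower. By contrast edgeR called none without P140 LAG-3-/- replicate 2 or 3, without P120 LAG-3-/- replicate 2 or 3, or without any 1 of the P120 LAG-3+/+ libraries, although 2009 to 2352 genes had an unadjusted p under 0.05, and it called 1 without P120 LAG-3-/- replicate 1. DESeq2, which the study used, called 899 genes higher (4.82%) and 384 lower (2.06%) from all 12 libraries, with the 32 among them. In each of these fits the 32 genes, chosen from the same libraries, kept the sign of their coefficients.

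**Figure D4:**
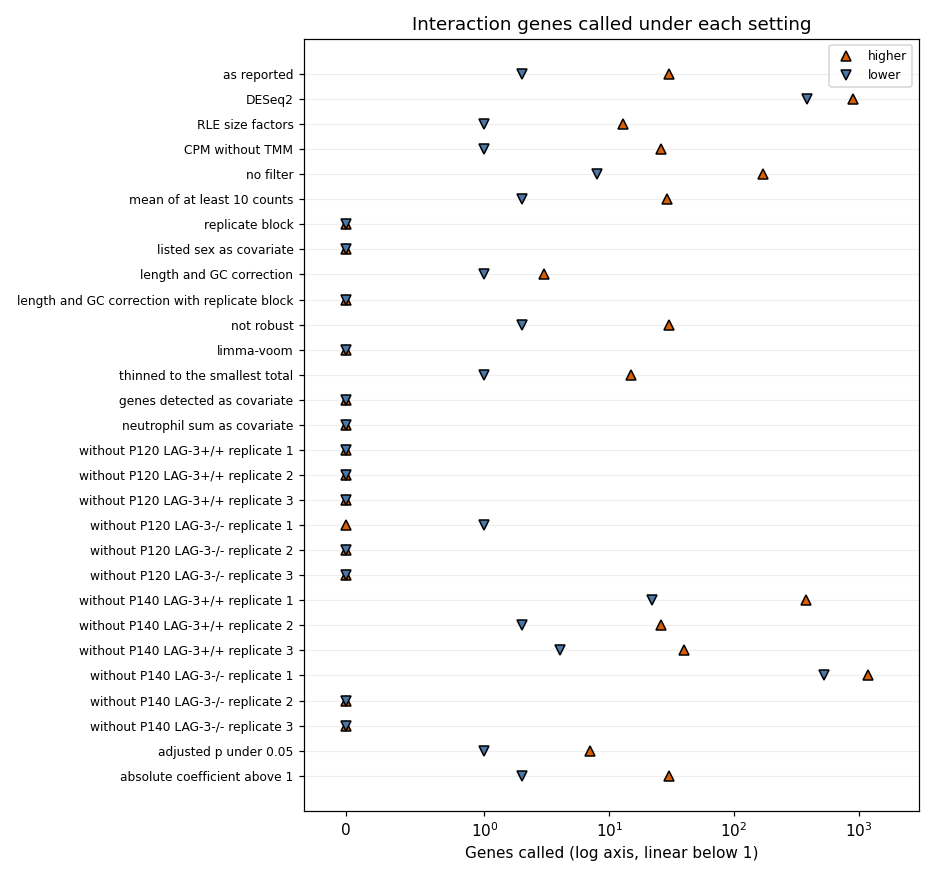
Number of genes called higher (orange) and lower (blue) for the interaction, on a log axis that is linear below 1, under each setting of the analysis and with each library left out. As reported there were 30 and 2, and the number of higher genes ranged from 0 to 1187.

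The 2 genotype differences that make up the interaction were unequal in size. These share all their libraries with the coefficient and are given only to read it. At P140, 1347 genes were higher (7.22%) and 561 lower (3%) in LAG-3-/- microglia, and at P120 none was higher and 2 were lower (Lag3 and Gm30890) by edgeR, where 551 genes had an unadjusted p under 0.05 and DESeq2 called 33 higher and 93 lower. From P120 to P140, 2219 genes rose (11.9%) and 2899 fell (15.5%) in LAG-3+/+ microglia. In LAG-3-/- microglia edgeR called none in either direction, 1658 genes had an unadjusted p under 0.05, and DESeq2 called 362 higher and 88 lower. Of the 32 genes called for the interaction, H2-Aa and Itgb5 had the smallest adjusted p for the genotype difference at P120, both at 0.107.

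None of the 9 DAM markers named by the study was called by edgeR. Axl, a receptor for dying cells, had the largest coefficient, 2.31 ± 0.67 (unadjusted p = 0.00533, adjusted p = 0.213). It was at 1159, 904 and 673 CPM in P120 LAG-3+/+, 636, 1255 and 571 CPM in P120 LAG-3-/-, 308, 175 and 157 CPM in P140 LAG-3+/+ and 396, 1524 and 932 CPM in P140 LAG-3-/- microglia, so the P140 genotypes did not overlap and the P120 genotypes did. DESeq2 called Axl (adjusted p = 0.0254). Itgax, the CD11c integrin subunit, had a coefficient of 0.89 (adjusted p = 0.440), with P140 LAG-3+/+ libraries between 111 and 117 CPM and P140 LAG-3-/- libraries between 168 and 321 CPM.

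The other 7 DAM markers had coefficients from -1.03 to -0.17. Apoe, the main lipid carrier of the brain, had the most negative, -1.03 ± 0.87 (adjusted p = 0.642). Clec7a, which encodes Dectin-1, had one of -0.42 ± 0.54 (adjusted p = 0.791), with 1195 to 1662 CPM in P140 LAG-3+/+ and 462 to 709 CPM in P140 LAG-3-/- microglia against 511 to 809 and 192 to 637 CPM at P120. Clec7a thus stood lower in LAG-3-/- means at both stages, and the difference between the stages was within its error. Trem2, its adaptor Tyrobp, Lpl, Cst7 and Spp1 had coefficients of -0.46, -0.17, -0.31, -0.43 and -0.52, with adjusted p from 0.599 to 0.920. P120 LAG-3-/- replicate 2 had the highest Apoe (37416 CPM, against 7928 and 5158 CPM in replicates 1 and 3), Cst7 and Spp1 of its group.

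The 4 homeostatic markers named by the study did not pass the threshold either. Tmem119, P2ry12 and Selplg had coefficients of -0.50, -0.92 and -0.78, and the fractalkine receptor Cx3cr1 one of 0.43 (adjusted p from 0.483 to 0.738). In the wider list of homeostatic genes, Csf1r, the growth factor receptor that microglia need to survive, had a coefficient of 1.55 ± 0.40 (adjusted p = 0.185), with 965 to 2258 CPM in P140 LAG-3+/+ and 3727 to 5560 CPM in P140 LAG-3-/- libraries. Mertk, another receptor for dying cells, and Tgfbr1, a TGF-beta receptor, had coefficients of 1.68 ± 0.45 and 1.48 ± 0.54. All 3 have long transcripts, and with the length and GC correction their coefficients were 0.24, 0.18 and -0.09. The median over all genes was 0.18 as reported and -0.46 with that correction. Over the list, 8 of 21 measured genes had positive coefficients and none was called.

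The efferocytosis and phagocytic receptor list held the only other called list member, Itgb5. Of its 41 measured genes 26 had positive coefficients, 13 with an unadjusted p under 0.05 against 9.94% of all genes. The other 15 had negative coefficients, 3 with an unadjusted p under 0.05 against 3.67% of all genes. DESeq2 called 9 higher and 1 lower, against 4.82% and 2.06% of all genes. Dock2, a Rac activator of leukocytes, had a coefficient of 1.84 ± 0.39 (adjusted p = 0.176), with 81.0 to 131 CPM in P140 LAG-3+/+ microglia and 222 to 467 CPM in each other group. Itgam, the CD11b subunit, had one of 1.53 ± 0.35 (adjusted p = 0.176). The median transcript of this list was 2924 bases. Its median coefficient was 0.53 above that of all genes as reported and 0.15 above it with the length and GC correction.

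Chemokine receptors and their signalling components gave a similar picture. None of 28 genes was called by edgeR, 22 had positive coefficients, 8 of them at an unadjusted p under 0.05 (9.94% of all genes), and DESeq2 called 7 higher (4.82% of all genes). Pik3cg, the PI3-kinase downstream of chemokine receptors, was at 10.6 to 24.4 CPM in P140 LAG-3+/+ microglia and 29.3, 186 and 164 CPM in P140 LAG-3-/- microglia (coefficient 2.97 ± 0.78, adjusted p = 0.185), so that replicate 1 lay near the LAG-3+/+ libraries. Its regulatory partner Pik3r5 had a coefficient of 1.92 ± 0.54. The chemokines themselves mostly went the other way: 14 of 17 measured genes had negative coefficients, with a median of -0.92. Of the 14, 4 had an unadjusted p under 0.05, against 3.67% of all genes. None of the 17 was called by edgeR. DESeq2 called 3 lower and 2 higher, against 2.06% and 4.82% of all genes. Ccl5, a chemokine for T cells and monocytes, was at 1.57 to 8.5 CPM in P120 LAG-3+/+, 9.0 to 52.3 CPM in P120 LAG-3-/-, 10.9 to 90.8 CPM in P140 LAG-3+/+ and 10.6 to 36.1 CPM in P140 LAG-3-/- microglia. Cxcl9 was listed at 0 in all P120 LAG-3+/+ libraries and Ccl22 in all P140 LAG-3+/+ libraries, with no library of either gene above 8 CPM.

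Cell cycle and DNA replication genes had mostly positive coefficients, 63 of 72 against 10466 of all 18669 genes, with a median of 1.01. Of these, 14 had an unadjusted p under 0.05, against 9.94% of all genes, none was called by edgeR, and 9 were called higher by DESeq2, against 4.82% of all genes. Ccnb1, the cyclin of mitotic entry, had a coefficient of 3.17 ± 0.84 (adjusted p = 0.185), with 62.9, 12.6 and 57.2 CPM in P120 LAG-3+/+, 8.79, 11.3 and 4.81 CPM in P120 LAG-3-/-, 60.0, 21.1 and 48.6 CPM in P140 LAG-3+/+ and 78.9, 93.6 and 46.2 CPM in P140 LAG-3-/- microglia. The genotypes did not overlap at P120, where LAG-3-/- was lower, and did at P140. Cenpe, a kinetochore motor, and Top2a, a topoisomerase of dividing cells, had coefficients of 2.99 ± 0.78 and 3.77 ± 0.99 from the same order at P120. In the list as a whole the median genotype difference was -0.92 at P120 and 0.17 at P140.

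Lysosomal genes were divided. Among 57 hydrolases and membrane proteins 25 coefficients were positive and none was called. Gaa, the hydrolase of glycogen, had a coefficient of 1.97 (adjusted p = 0.185), and Ctsc, a protease activator, one of -0.91 (adjusted p = 0.220). Of 18 V-ATPase subunits, which acidify the lysosome, 13 had negative coefficients, whereas Atp6v1a and Atp6v0a1 had coefficients of 1.43 and 2.23. Atp6v0d2 was at 0 in all P120 LAG-3+/+ libraries and in 2 of 3 P120 LAG-3-/- libraries, and at 3.53 to 26.5 CPM in the P140 libraries of both genotypes.

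Interferon-stimulated genes had negative coefficients in 28 of 46 measured members, with 1 at an unadjusted p under 0.05 in each direction and none called. Ifit1 was at 472 CPM in P120 LAG-3-/- replicate 1 and 434 CPM in P140 LAG-3+/+ replicate 1 and at 130 CPM or less elsewhere, so single libraries set its coefficient. Oas3 and Gbp2 were likewise uneven within groups. MHC class I presentation genes had negative coefficients in 14 of 21 members. Psmb9, an immunoproteasome subunit, had one of -1.29, and the endoplasmic reticulum chaperones Calr and Canx had coefficients of 1.07 and 1.31, with adjusted p from 0.222 to 0.267.

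In complement and pattern recognition lists the coefficients were again of mixed sign. Cd59a, an inhibitor of complement, was at 0 in all P120 LAG-3+/+ libraries and at most at 3.70 CPM in any library. Among 25 Toll-like receptor genes and adaptors 15 had positive coefficients. Tlr13, an endosomal receptor for bacterial RNA, had one of 2.59 ± 0.55 (adjusted p = 0.176), the kinase Irak1 one of 1.82, and the co-receptor Cd14 one of -1.18 ± 0.39. Tlr13 was at 83.9, 27.8 and 33.3 CPM in P140 LAG-3+/+ microglia and at 157 CPM or more in every other library. Inflammatory cytokines and NF-kB genes had 17 of 31 negative coefficients. Il1rn, an antagonist of interleukin-1, had one of -2.44, while the growth factor Csf1 and the NF-kB inhibitor Tnip1 had coefficients of 1.99 and 3.10.

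None of the remaining lists had a member called by edgeR. Cholesterol synthesis and uptake had positive coefficients in 23 of 30 genes, led by Hsd17b7, Srebf1 and Dhcr7 at 6.23, 1.64 and 1.79 (adjusted p from 0.185 to 0.231). DESeq2 called 3 of the 30 higher and 0 lower, against 4.82% and 2.06% of all genes. The nuclear subunits of oxidative phosphorylation had negative coefficients in 69 of 75 genes, with a median of -0.32 and a median transcript of 773 bases. Cytosolic ribosomal proteins and mitochondrially encoded proteins had medians of 0.11 and 0.14. The DAM lipid-handling list had a median of -0.35, with Ank, a pyrophosphate transporter, at 1.91, and glycolysis one of 0.23. Immediate early, unfolded protein response, NK cytotoxicity and immune checkpoint lists had medians of -0.26, -0.26, -0.09 and -0.22. In the latter pair Plcg2, a phospholipase downstream of TREM2, and Sirpa, an inhibitory receptor for the signal CD47, had coefficients of 1.72 ± 0.38 and 1.57 ± 0.36 (adjusted p = 0.176 each). Both were lowest in P140 LAG-3+/+ libraries. Of the 16 measured NK cytotoxicity genes 7 had positive and 9 negative coefficients. An unadjusted p under 0.05 was reached by 5 with a positive coefficient, against 9.94% of all genes, and by 0 with a negative one. DESeq2 called 5 of the 16 higher, against 4.82% of all genes, and 0 lower.

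**Figure D5:**
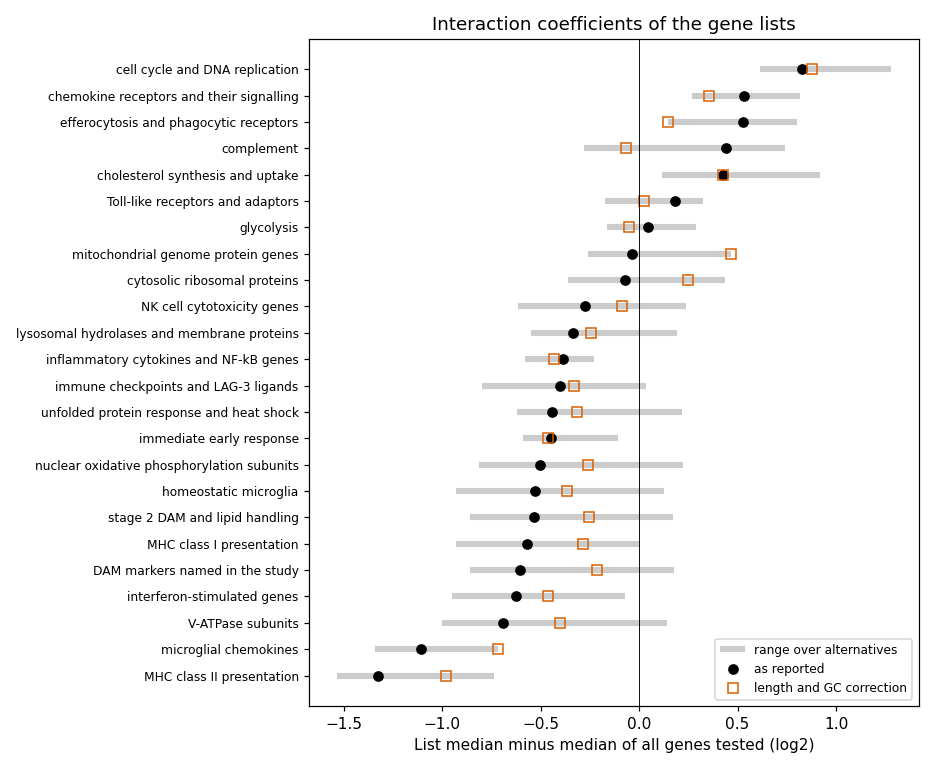
Median interaction coefficient of each of 24 gene lists minus the median of all genes tested (log2), as reported (black), with the length and GC correction (orange squares) and over the 26 alternative fits (grey bars). MHC class II presentation and microglial chemokines lie lowest at -1.33 and -1.11, and cell cycle and DNA replication highest at 0.83, with bars that do not reach 0.

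Neutrophil transcripts differed between the libraries in the pattern of an interaction. Of 15 listed neutrophil markers 13 were measured, 12 had positive coefficients, 9 of these at an unadjusted p under 0.05, against 9.94% of all genes, and none was called. Their summed level was 2271 to 3178 CPM in P120 LAG-3+/+, 511 to 633 CPM in P120 LAG-3-/-, 322 to 3878 CPM in P140 LAG-3+/+ and 532 to 5182 CPM in P140 LAG-3-/- libraries. Csf3r, at 167 CPM or more in every library, accounted for most of the low sums. Camp, Lcn2, Cd177, Ly6g and Mmp9 were at 0 in all P120 LAG-3-/- libraries, in P140 LAG-3+/+ replicate 3 and in P140 LAG-3-/- replicate 1. Their part in the interaction was not tested beyond a fit with their sum as a covariate. The 11 measured microglia identity genes summed to 31280 to 62320 CPM, and the markers of T, B and NK cells to 230 to 565 CPM.

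The 32 genes were read in the other tables of the series. P140 SOD1G93A microglia had been separated by surface LAG-3, and Lag3 was at 146 to 195 CPM in the high and 34.8 to 57.8 CPM in the low fraction. At an adjusted p under 0.1 and an absolute log2 fold change above 1, 1 of the 32 was higher in the high fraction and 1 lower, against 0.818% and 2.67% of the 16508 genes tested there (3.49% in either direction). Man1c1 was higher in LAG-3-high libraries (59.0 to 119 CPM, median 73.2) than in LAG-3-low libraries (30.4 to 36.6 CPM, median 36.5). Gda was at 0 in all 5 LAG-3-high libraries and at 22 to 55.4 CPM (median 27.3) in the LAG-3-low libraries. H2-Aa overlapped widely, from 80.5 to 192 CPM in LAG-3-high and from 3.28 to 341 CPM in LAG-3-low libraries. Itgb5 was at 180 to 311 and 95.3 to 128 CPM, a log2 difference of 0.95 that missed the fold threshold. Some genes at or near 0 in the P140 LAG-3+/+ libraries of the stage experiment were detected in both fractions. H6pd was at 28.0 to 56.6 CPM in LAG-3-low and 19.1 to 51.5 CPM in LAG-3-high libraries, and Zfp568 at 3.52 to 11.8 and 1.27 to 13.1 CPM. Rab11fip3 was low there too, at 0.205 to 4.55 and 1.13 to 3.74 CPM, and Ube2o was at 0 in replicate 1 of each fraction. The cause of this difference between experiments was not tested.

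In whole spinal cord at P140, 1 of the 31 genes that could be tested was higher in LAG-3-/- and 1 lower by the same thresholds, against 4.37% and 3.15% of 17702 genes (7.52% in either direction). Gm60084 was higher in LAG-3-/- cord by a log2 fold change of 1.08, and Zfp109 fell by 1.45 on the log2 scale. H2-Aa and Sec61a2 had log2 differences of 0.12 and 0.16 there. The median over the 29 higher calls tested in cord was -0.25, against -0.0037 over all genes. Below the fold threshold, Aqr, Jmy, Zfp568 and H6pd were lower in LAG-3-/- cord, at -0.64, -0.61, -0.90 and -0.62 (edgeR adjusted p from 0.00114 to 0.00582). Myl6b was higher, at 0.90. The cord signs of Zfp109, Aqr, Jmy, Zfp568 and H6pd were opposite to their P140 genotype differences in microglia. The cause was not tested.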

How the data were processed

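The stage experiment comprised 12 libraries of sorted SOD1G93A microglia, 3 in each of 4 groups. The deposited values are estimated counts per gene, which the authors made with Trim Galore 0.6.7, Salmon 1.9.0 on GRCm39 and tximport in R 4.2.1 from SMART-seq libraries sequenced as paired ends; the annotation release and tximport scaling are not given in the sources used here. Here the estimated counts were rounded, filtered with filterByExpr (minimum count 10, minimum total 15) and scaled by TMM. They were fitted with edgeR 4.0.16 in R 4.3.3 by a robust quasi-likelihood model with terms for genotype, stage and their interaction. The interaction was tested across 18669 genes, and a gene was called at a Benjamini-Hochberg adjusted p under 0.1 with no minimum fold. All adjusted p-values are from this test unless DESeq2 (1.42.0) is named. The study's methods used DESeq2 with an interaction term, which is given as an alternative beside limma-voom (3.58.1) and other settings. The table of LAG-3-low (5), LAG-3-high (5) and WT microglia (4 libraries, in the fit but not in the contrast) and that of spinal cord (6 libraries) were fitted separately, with an absolute log2 fold change above 1 also required. Of the deposited identifiers, 66 were absent from the annotation (0.0514% of counts).

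Genes were named by a rule: Lag3, the DAM and homeostatic markers of the study, the 8 largest coefficients in each direction among called genes with a group mean of at least 10 CPM and a symbol that is no predicted gene model, filled by the smallest unadjusted p, and up to 3 members of each list by the smallest p; the other called genes are named in addition. Some genes that this rule names are not reported here. The comparison, members and lists were chosen with earlier results of these data known. Floors cover counting error only and were 3 counts in each library. The interaction tests by edgeR, DESeq2 and limma-voom were tried on simulated stage counts, and the other steps were not. Alternatives changed the normalization, filter, test, threshold, covariates and libraries 1 at a time.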

Additional observations from a re-analysis of the deposited data

Results flagged for a closer look

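The interaction is itself a difference between the stages in the effect of genotype, so each of the 30 higher and 2 lower genes is listed here with its value. The fitted coefficient (log2) was -4.30 for H2-Aa, -2.19 for Sec61a2, 1.86 for Caprin1, 1.96 for Ipo13, 2.40 for Man1c1, 2.42 for Lrp10, 2.69 for Kdm4b, 2.91 for Phka2, 2.93 for Unc119b, 2.95 for Washc5, 3.07 for Slc44a1, 3.15 for Hectd3, 3.21 for Aqr, 3.78 for Itgb5, 4.03 for Nucks1, 4.67 for Zfp280b, 5.78 for C2cd2l, 6.62 for Ska3 and 7.86 for H6pd.

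Where all P140 LAG-3+/+ libraries were at 0, the LAG-3-/- to LAG-3+/+ ratio was higher at P140 than at P120 by at least 18.4-fold for Zfp568, 21.1-fold for Zfp109, 27.9-fold for Gm49015, 31.2-fold for Plekhn1, 47.3-fold for Gm60084, 56.1-fold for Rab11fip3, 64.0-fold for Zfp407, 67.3-fold for Ube2o and 90.3-fold for Gm4668, with each such library set to 3 counts. For 4 genes with a group that held 1 count in all, no bound is given, and the adjusted p by edgeR was 0.0374 for Gda, 0.0374 for Ajm1, 0.0555 for Jmy and 0.0908 for Myl6b.

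In LAG-3-high microglia, 1 of 5 libraries stood apart by Dixon's criterion for Man1c1, at 119 CPM, and for Itgb5, at 311 CPM. Chance alone flags about 1 in 20 such groups.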

How the results depend on the processing

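The signs of all 32 called genes held in every alternative fit, but the number of calls did not. The 32 were chosen from the same libraries, so the held signs are not separate evidence for them. Against 32 as reported, DESeq2 called 1283 genes, RLE size factors gave 14, no filter on low counts 179, thinning to the smallest total 16, an adjusted p under 0.05 8, and the length and GC correction 4. No gene was called with limma-voom (2796 at an unadjusted p under 0.05), the listed sex as a covariate (2349), or 2 covariates chosen after seeing the data, genes detected (1059) and the neutrophil sum (1239). Blocking on the replicate number left 0 calls (2218 at an unadjusted p under 0.05), and with the length and GC correction and the block 0 (2059). The numbers did not pair the libraries: deviations of same-numbered libraries correlated at -0.119 to 0.0662, and 1 of 12 libraries correlated best with its own number.

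Leaving out 1 library gave 0 to 1713 calls: 1713 without P140 LAG-3-/- replicate 1, 397 without P140 LAG-3+/+ replicate 1, 44 and 28 without replicates 3 and 2 of that group, 1 without P120 LAG-3-/- replicate 1 and 0 in the other 7 fits. Of the 32 genes, 2 were called between the LAG-3 fractions (3.49% of all genes) and 2 to 3 with a library left out. Of the DESeq2 set 91 of 1216 were called, where DESeq2 called 177 higher and 811 lower of the 16508 genes tested. With only the 2 fractions in the fit (chosen after seeing the data) 5 of the 32 were called, where 327 of all genes were called higher and 1123 lower. In cord the counts were 2 (7.52% of all genes) and 2 to 4 with a library left out, 4 being without LAG-3+/+ replicate 2. Of the DESeq2 set 50 of 1126 were called in cord, where DESeq2 called 750 higher and 521 lower of the 17702 genes tested.

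No reversed coefficient belonged to a called gene. With genes detected as a covariate coefficients were 0.16 for Trem2, 0.50 for Tyrobp, 0.30 for Cst7, 0.15 for Spp1, 0.083 for Tmem119, -0.19 for Tgfbr1, -0.22 for Csf1 and -0.30 for Tnip1. With the neutrophil sum they were -0.14 for Lag3, 0.17 for Trem2, 0.55 for Tyrobp, 0.054 for Lpl, 0.29 for Cst7, 0.33 for Spp1 and 0.12 for Clec7a. With the length and GC correction, without and with the replicate block, they were -0.28 and -0.28 for Lag3, -0.32 and -0.22 for Itgax, -0.54 and -0.60 for Cx3cr1, and -0.093 and -0.088 for Tgfbr1. The median over all genes was -0.46 and -0.42 in these fits, below all of these values except those of Cx3cr1. Tyrobp was 0.027 without TMM and Cst7 0.11 by voom. With 1 library left out, coefficients ranged from -0.60 to 0.93 for Lag3, -0.48 to 0.12 for Tyrobp, -1.45 to 0.33 for Apoe, -0.55 to 0.18 for Lpl, -0.90 to 0.89 for Cst7, -0.86 to 0.54 for Spp1, -0.72 to 0.25 for Clec7a and -11.05 to 0.12 for Atp6v0d2. The cause of these changes was not tested. The median over all genes moved from 0.18 to 0.41 without TMM, 0.07 with DESeq2 and -0.46 with the length and GC correction, so lists are plotted relative to it.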
